A study of Mus musculus with 17 samples.

Results

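The transcripts of platelet-derived growth factors (PDGF) and their receptors were followed in mouse lung after focal irradiation. The members are the 4 ligand genes Pdgfa, Pdgfb, Pdgfc and Pdgfd and the 2 receptor genes Pdgfra and Pdgfrb, chosen by symbol as the complete ligand and receptor set, that is, 6 of the 45777 genes in the count table. All 6 passed the filter on low counts, which left 22052 genes for testing. The mice were male wild-type C57BL/6 animals, 6 weeks old at arrival, whose left lung received 65 Gy or 75 Gy of X-rays in a single exposure, and the controls were non-irradiated mice. Tissue was taken 2 weeks after exposure, the time the study calls the inflammation stage, and 6 weeks after exposure, its fibrosis stage. Each group held 3 libraries, except 65 Gy at 6 weeks, which held 2, for 17 libraries in 6 groups. The study lists 3 replicates for 65 Gy at 6 weeks and describes replicate 2 as having fewer reads and the poorest mapping. The labels do not say which replicate is absent here, but the library numbers of this group, 3138 and 3140, skip the one between them. These libraries held 59653532 and 58298851 counts on genes, above the median of 57608149 over the 17 libraries. Libraries are called by the numbers in their labels: 3126 to 3128 (controls), 3129 to 3131 (65 Gy) and 3132 to 3134 (75 Gy) at 2 weeks, and 3135 to 3137 (controls), 3138 and 3140 (65 Gy) and 3141 to 3143 (75 Gy) at 6 weeks. Nothing in the labels says that animals were pooled, or names the animal behind a library. No gene was altered in these mice. RNA of the irradiated mice came from the lesion.

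PDGF chains are secreted as dimers that join and activate the receptor tyrosine kinases PDGFRα and PDGFRβ. The A and B chains are cut by furin-type proteases inside the cell, whereas the C and D chains are released with a CUB domain that must be removed by proteases such as plasminogen activators before the receptor can be bound. PDGF-A, PDGF-B and PDGF-C bind PDGFRα, and PDGF-B and PDGF-D bind PDGFRβ. In the lung, PDGFRα marks fibroblasts of the alveolar wall, including the precursors that build septa, PDGFRβ marks pericytes and smooth muscle, PDGF-B from capillary endothelium recruits pericytes, and PDGF-A is a product of alveolar epithelium. The family is known for driving the division and migration of mesenchymal cells in fibrosis.

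In short, Pdgfc was the member that rose. It was 2.08-fold higher at 65 Gy and 2.22-fold higher at 75 Gy at 2 weeks, and 3.18-fold and 3.96-fold higher at 6 weeks. Pdgfra fell in the same 4 comparisons, between 1.505-fold and 1.74-fold. Pdgfa, Pdgfb, Pdgfd and Pdgfrb had lower fitted means than the controls in all 4 comparisons. In the fit of all libraries each passed the test in 1 or 2 of them, always at 75 Gy. No member passed between 75 Gy and 65 Gy, however, and Pdgfb, Pdgfd and Pdgfrb passed at 65 Gy and 6 weeks with only the groups compared. The calls of Pdgfd and Pdgfrb, and those of Pdgfra at 65 Gy, were lost when certain single libraries were left out.

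The sequences before a transcript start of the genes that moved in opposite directions are shown so that they can be set side by side. They are windows of 250 bases in RefSeq, build GRCm38.p6, read 5′ to 3′ on the strand of the gene, and capitals mark matches to the 5 motifs that were searched on both strands: the GC box GGGCGG, the TATA box TATAAA, the motif CCAAT, the AP-1 site TGANTCA and the EGR1 site GCGTGGGCG. None of these motifs contains another, but a GC box and an EGR1 site can share bases. Pdgfc lies on the plus strand and its window is chr3:81036166-81036415.
Pdgfc: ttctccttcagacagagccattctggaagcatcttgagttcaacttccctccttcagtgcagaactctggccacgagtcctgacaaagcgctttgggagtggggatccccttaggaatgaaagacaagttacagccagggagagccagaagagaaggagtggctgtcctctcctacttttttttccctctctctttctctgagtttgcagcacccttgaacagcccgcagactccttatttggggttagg
Pdgfra also lies on the plus strand and its window is chr5:75152001-75152250.
Pdgfra: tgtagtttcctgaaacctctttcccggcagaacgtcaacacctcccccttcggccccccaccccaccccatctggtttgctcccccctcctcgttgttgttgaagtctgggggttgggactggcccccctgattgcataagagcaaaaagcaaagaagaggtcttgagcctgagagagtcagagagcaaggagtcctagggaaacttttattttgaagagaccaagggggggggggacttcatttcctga
The Pdgfc window ends at the base before its gene, whereas the Pdgfra window lies inside the span of its gene, before an inner transcript start. Neither window held a match to any of the 5 motifs, which says only that these letters are absent there. Their GC content was 50.8% and 54.4%. Pdgfd, whose protein is the closest relative of PDGF-C, had 1 TATA box in the window chr9:6168236-6168485 on the plus strand, and that sequence is shown for contrast with Pdgfc. This window overlaps the first bases of its gene.
Pdgfd: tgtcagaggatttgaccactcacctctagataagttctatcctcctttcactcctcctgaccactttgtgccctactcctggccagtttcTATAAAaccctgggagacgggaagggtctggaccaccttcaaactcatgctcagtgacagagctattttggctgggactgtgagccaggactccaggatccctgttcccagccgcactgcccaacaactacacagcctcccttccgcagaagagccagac
Pdgfa, on the minus strand, had 2 windows for 2 transcript starts, both inside the span of its gene. The upstream window, chr5:138994945-138995194, had a GC content of 72.4% and 2 GC boxes, which read CCGCCC here because they lie on the other strand.
Pdgfa: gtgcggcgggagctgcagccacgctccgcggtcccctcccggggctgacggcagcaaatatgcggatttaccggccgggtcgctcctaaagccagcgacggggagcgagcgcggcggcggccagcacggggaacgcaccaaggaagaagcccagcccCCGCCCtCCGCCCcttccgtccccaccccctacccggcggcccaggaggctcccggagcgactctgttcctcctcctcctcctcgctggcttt
Its other window, chr5:138994282-138994531, held 1 GC box. Over the 32851 promoter windows of the same length in the RefSeq table, 32.7% held a GC box, 12.4% a TATA box, 33.8% a CCAAT, 6.75% an AP-1 site and 0.536% an EGR1 site. Windows for Pdgfb and Pdgfrb were not analysed here.

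The 17 libraries held between 46764569 and 66797879 counts on genes, with a median of 57608149. The lowest count of a member was 121 (Pdgfc in control library 3126) and the highest was 27378 (Pdgfra in control library 3128). Library 3134 stood apart from the other irradiated libraries, and calls at 75 Gy and 2 weeks that were lost without it are given with their values without it, for the members and for the other genes named. Levels are in CPM, counts scaled to a common library total with TMM factors, and errors of levels are SDs over libraries. The tests are edgeR's quasi-likelihood F tests from 1 fit of all 17 libraries, and p-values were adjusted over the 22052 genes (Benjamini-Hochberg). Rose and fell are written of genes whose adjusted p did not exceed 0.05. A differentially expressed gene (DEG) is one of these that also moved by 1 or more on the log2 scale. The median log2 fold change of all genes tested lay between -0.01 and 0.04 in the 9 comparisons. Both doses at a time point were compared with the same 3 controls, so their results are not independent of each other. As nothing says which animals the libraries came from, the p-values measure the spread between these libraries.

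Set against length, the members differed widely in level. In the controls of 2 weeks, Pdgfra stood highest, at 68.0 ± 9.35 CPM per kb of its longest coding transcript (SD, n = 3), followed by Pdgfa at 46.1 ± 3.04, Pdgfb at 41.6 ± 1.44, Pdgfrb at 33.8 ± 8.39, Pdgfd at 10.1 ± 1.53 and Pdgfc at 0.746 ± 0.0703 CPM per kb. Pdgfb and Pdgfrb did not differ beyond their spread there. In the controls of 6 weeks the order was the same, with Pdgfra at 59.5 ± 2.92, Pdgfa at 53.2 ± 4.10 and Pdgfc at 0.745 ± 0.0578 CPM per kb. The SD ranges of Pdgfra and Pdgfa overlapped. At 75 Gy and 6 weeks Pdgfa (37.8 ± 3.17) and Pdgfra (34.1 ± 3.70) stood first, with overlapping SD ranges. Pdgfrb (23.1 ± 3.62) and Pdgfb (23.0 ± 4.68) did not differ beyond their spread in that group. There Pdgfc had reached 2.95 ± 0.356 CPM per kb against 7.91 ± 0.760 for Pdgfd. Pdgfd ranked next above Pdgfc, the lowest, in every group. With the length of all exons joined, that also held, while the order of the upper 4 genes changed.

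**Figure D1:**
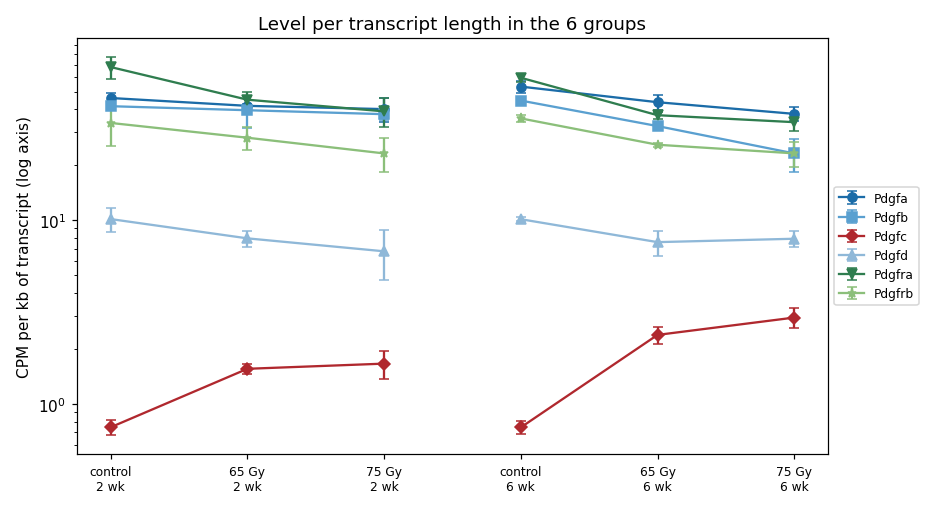
Level of each gene in CPM per kb of its longest coding transcript (vertical log axis) in the 6 groups (horizontal axis), as means with SD over 3 libraries, or 2 at 65 Gy and 6 weeks. Pdgfc lies lowest in every group and climbs from 0.746 in the controls of 2 weeks to 2.95 at 75 Gy and 6 weeks, while the other 5 genes lie lower in the irradiated groups than in the controls of the same time.

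Pdgfa (GeneID 18590, chr5:138976014-139000792, minus strand) encodes the A chain. It measured 87.8, 98.6 and 98.7 CPM in control libraries 3126 to 3128, 88.55, 83.5 and 86.4 CPM in 65 Gy libraries 3129 to 3131, and 88.3, 90.9 and 69.0 CPM in 75 Gy libraries 3132 to 3134. At 2 weeks the irradiated libraries therefore overlapped the controls, and library 3134 was the lowest. At 6 weeks Pdgfa measured 104, 119 and 105 CPM in the controls, 84.55 and 95.8 CPM at 65 Gy, and 84.7, 77.5 and 71.65 CPM at 75 Gy. Every irradiated library lay below every control library at that time. At 75 Gy and 6 weeks Pdgfa fell 1.41-fold, or by 0.49 on the log2 scale (SE 0.106, adjusted p = 0.00256), whereas at 65 Gy its log2 fold change of -0.28 did not pass (adjusted p = 0.128). The values at 2 weeks were -0.14 at 65 Gy (adjusted p = 0.447) and -0.20 at 75 Gy (adjusted p = 0.194). In GENCODE M21, 26.1% of its exon bases are also covered by 6330403L08Rik on the opposite strand, a gene that has no row in the count table, and how the counting used strand is not given in the sources used here.

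Pdgfb (GeneID 18591, chr15:79995865-80024614, minus strand) encodes the B chain, the ligand shared by both receptors. At 2 weeks it measured 122, 127 and 119 CPM in the controls, 141.5, 96.7 and 112 CPM at 65 Gy, and 117, 113 and 102 CPM at 75 Gy. The 65 Gy libraries lay on both sides of the controls, and the 75 Gy libraries lay just below them without passing the test (log2 fold change -0.14, adjusted p = 0.494). At 6 weeks Pdgfb measured 138, 128 and 128 CPM in the controls, 94.6 and 96.6 CPM at 65 Gy, and 83.7, 60.8 and 59.0 CPM at 75 Gy. The 3 groups did not overlap, with the 75 Gy libraries lowest. Pdgfb fell 1.94-fold at 75 Gy and 6 weeks (log2 fold change -0.95, SE 0.138, adjusted p = 0.000159), and 5.34% of all genes tested had a log2 fold change as low. At 65 Gy and 6 weeks the log2 fold change of -0.46 (SE 0.154) missed the threshold (adjusted p = 0.0581). It passed there with DESeq2 (adjusted p = 0.0358), with edgeR's exact test (adjusted p = 0.0404) and with only the groups compared in the fit (adjusted p = 0.00241).

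Pdgfc (GeneID 54635, chr3:81036416-81214040, plus strand) encodes a ligand of PDGFRα that needs extracellular cleavage. Its counts were 121, 136 and 132 in the controls of 2 weeks, or 2.46, 2.91 and 2.52 CPM. The 65 Gy libraries of that time measured 5.73, 5.07 and 5.59 CPM, and the 75 Gy libraries 5.03, 5.47 and 6.999 CPM. Libraries of 6 weeks measured 2.40, 2.80 and 2.67 CPM in the controls, 7.72 and 8.995 CPM at 65 Gy, and 8.94, 11.2 and 10.99 CPM at 75 Gy. The 6 control libraries of both times thus stayed between 2.40 and 2.91 CPM, and all 11 irradiated libraries lay above them. Separation of this kind, with each irradiated library above each control library over both times, was seen in 6.07% of all genes tested, and with each below in 4.5%. At 2 weeks the log2 fold change was 1.06 (SE 0.148, adjusted p = 0.000383) at 65 Gy and 1.15 (SE 0.148, adjusted p = 0.000122) at 75 Gy. At 6 weeks it was 1.67 (SE 0.160, adjusted p = 1.49e-05) at 65 Gy and 1.98 (SE 0.149, adjusted p = 7.86e-07) at 75 Gy. Of all genes tested, whether or not they passed, 7.76% and 8.28% had a log2 fold change at least as high at 2 weeks, and 4.63% and 4.56% at 6 weeks. Without library 3134 the log2 fold change at 75 Gy and 2 weeks was 0.998 (adjusted p = 0.000333), just under the DEG limit. Gm16000, on the opposite strand and without a row in the table, covers 2.89% of its exon bases.

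Pdgfd (GeneID 71785, chr9:6168363-6534284, plus strand) encodes the ligand of PDGFRβ that also carries a CUB domain. It measured 36.6, 31.4 and 27.1 CPM in the controls of 2 weeks, 22.9, 27.8 and 24.0 CPM at 65 Gy, and 27.6, 21.1 and 14.8 CPM at 75 Gy. Control library 3128 overlapped both irradiated groups, and library 3134 was far below the others. At 6 weeks it measured 31.3, 31.15 and 32.5 CPM in the controls, 21.2 and 26.35 CPM at 65 Gy, and 22.05, 26.3 and 25.96 CPM at 75 Gy. All 5 irradiated libraries of 6 weeks lay below the controls, yet neither comparison passed (adjusted p = 0.184 at 65 Gy and 0.134 at 75 Gy). Pdgfd fell at 75 Gy and 2 weeks, by 0.58 on the log2 scale (SE 0.178, adjusted p = 0.0288). This call was lost without library 3126 (-0.45, adjusted p = 0.0997), 3127 (-0.59, adjusted p = 0.0655), 3133 (-0.58, adjusted p = 0.0581) or 3134 (-0.38, adjusted p = 0.107). In the fit of only the groups compared, Pdgfd did not pass at 2 weeks (adjusted p = 0.193) and passed at 6 weeks at 65 Gy (adjusted p = 0.031) and 75 Gy (adjusted p = 0.00957).

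**Figure D2:**
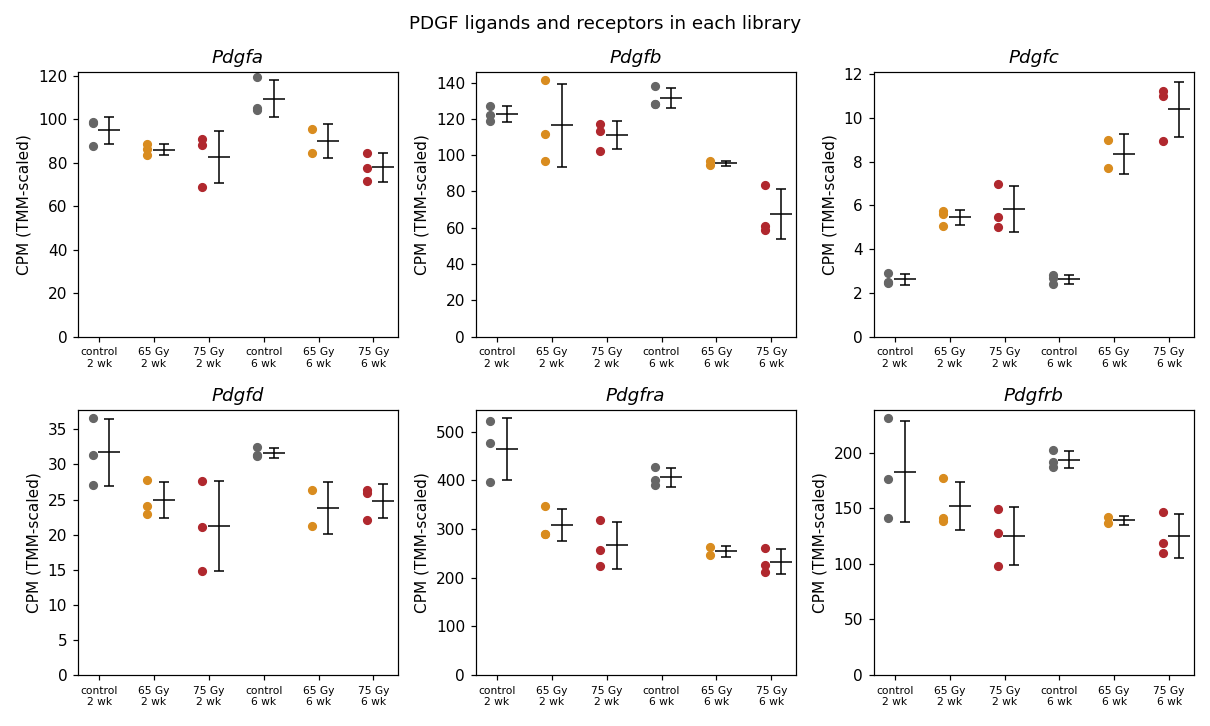
CPM (vertical axes from 0) of the 6 genes in the 17 libraries, with a panel for each gene. Points are libraries, grey for controls, orange for 65 Gy and red for 75 Gy, and the bars beside them give mean and SD. Pdgfc is higher in all 11 irradiated libraries than in all 6 controls, Pdgfra is lower in all 11, and at 6 weeks none of the 6 genes overlaps between irradiated and control libraries.

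Pdgfra (GeneID 18595, chr5:75151322-75198206, plus strand) encodes the receptor for PDGF-A, PDGF-B and PDGF-C. At 2 weeks it measured 396, 476 and 522 CPM in the controls, 289, 289.8 and 347 CPM at 65 Gy, and 258, 319 and 224 CPM at 75 Gy. At 6 weeks it measured 389.6, 428.5 and 401 CPM in the controls, 246 and 263 CPM at 65 Gy, and 261, 227 and 211.5 CPM at 75 Gy. The highest irradiated library, at 347 CPM, was below the lowest control library, at 389.6 CPM, so Pdgfra is the member that mirrored Pdgfc in separating all irradiated from all control libraries. At 75 Gy it fell 1.74-fold at both times, the log2 values being -0.80 at 2 weeks (SE 0.135, adjusted p = 0.000843) and -0.80 at 6 weeks (SE 0.135, adjusted p = 0.00046). At 65 Gy it fell by 0.59 on the log2 scale at 2 weeks (SE 0.134, adjusted p = 0.0118) and by 0.68 at 6 weeks (SE 0.153, adjusted p = 0.00942). Between 7.18% and 8.37% of all genes tested had a log2 fold change as low in these comparisons. The calls at 75 Gy held in each fit without a library. At 65 Gy and 2 weeks the call was lost without library 3128 (-0.50, adjusted p = 0.0513) or 3129 (-0.54, adjusted p = 0.0567). At 65 Gy and 6 weeks it was lost without library 3138 (-0.62, adjusted p = 0.101) or 3140 (-0.71, adjusted p = 0.054), which leaves 1 library in the group, assumed to vary like the others. Its exons share bases with Gm42802 (4.55%) and Gm42803 (1.66%) on the opposite strand, which have no row, and with the microRNA gene Mir7025, which had 4 to 8 counts.

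Pdgfrb (GeneID 18596, chr18:61045127-61085067, plus strand) encodes the receptor for PDGF-B and PDGF-D. At 2 weeks it measured 141.5, 176 and 232 CPM in the controls, 177, 141 and 138.5 CPM at 65 Gy, and 128, 149.5 and 97.8 CPM at 75 Gy. The controls of 2 weeks were widely spread and overlapped both irradiated groups. At 6 weeks it measured 187, 192 and 202.5 CPM in the controls, 142 and 137 CPM at 65 Gy, and 147, 119 and 109.4 CPM at 75 Gy, without overlap. Pdgfrb fell at 75 Gy, by 0.55 on the log2 scale at 2 weeks (SE 0.177, adjusted p = 0.0361) and by 0.63 at 6 weeks (SE 0.177, adjusted p = 0.0123). The call at 2 weeks was lost without library 3127 (-0.58, adjusted p = 0.0675), 3128 (-0.34, adjusted p = 0.192), 3132 (-0.57, adjusted p = 0.0578) or 3134 (-0.40, adjusted p = 0.151). The call at 6 weeks was lost without library 3142 (-0.58, adjusted p = 0.0506) or 3143 (-0.53, adjusted p = 0.0663). At 65 Gy the log2 fold changes of -0.27 at 2 weeks and -0.48 at 6 weeks did not pass (adjusted p = 0.381 and 0.125), although the latter passed with only the groups compared (adjusted p = 0.00226).

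Counted together, 2 of the 6 genes changed at 65 Gy and 2 weeks, 1 up and 1 down, where 11% of all genes tested changed (6.7% up and 4.29% down). At 75 Gy and 2 weeks 4 changed, 1 up and 3 down, against 22.3% of all genes (11.8% up and 10.5% down). At 65 Gy and 6 weeks 2 changed, 1 up and 1 down, against 14.7% (7.66% up and 7.01% down). At 75 Gy and 6 weeks 5 changed, 1 up and 4 down, against 36% (18% in either direction). The median log2 fold change of the 6 genes was -0.20, -0.38, -0.44 and -0.56 in that order. Pdgfc alone was a DEG in each of the 4 comparisons, where 4.35%, 7.74%, 5.28% and 10.4% of all genes tested were. At 75 Gy and 2 weeks 2 members passed without library 3127 and 2 without library 3134, and the background without library 3134 was 15%. At 65 Gy and 2 weeks 1 passed without library 3128 or 3129. No background was computed for the fits without library 3127, 3128 or 3129. At 2 weeks Pdgfc and Pdgfra separated the 6 irradiated from the 3 control libraries, as 11% of all genes tested did upwards and 9.02% downwards. The 75 Gy libraries alone lay below the controls for Pdgfb too, as they did in 14.8% of all genes tested. At 6 weeks all 6 members separated the 5 irradiated from the 3 control libraries, 5 of them lower, where 22.3% of all genes tested were lower in this way and 22% higher.

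**Figure D3:**
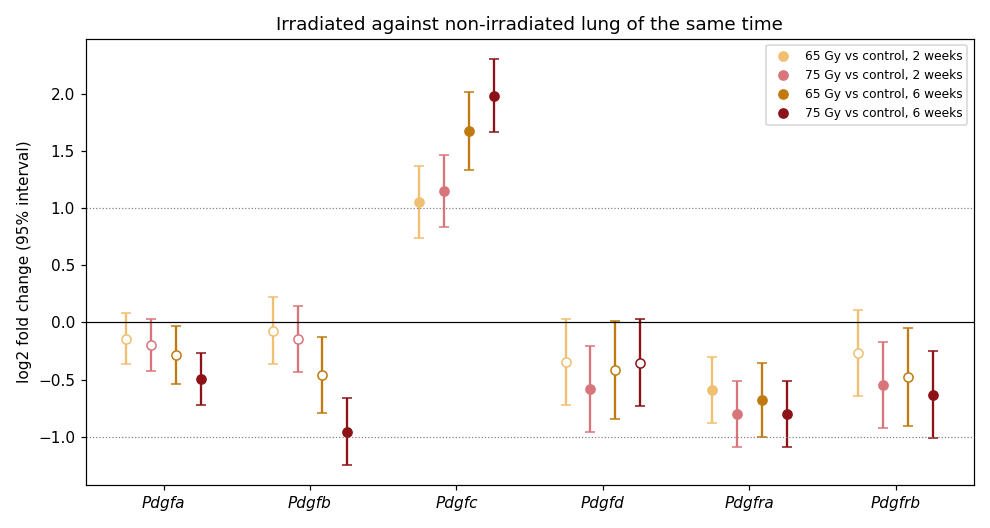
log2 fold change of each gene (vertical axis) in the 4 comparisons of an irradiated group with the controls of the same time, with 95% intervals. Filled points have an adjusted p of at most 0.05 and dotted lines mark the DEG limit of 1 in either direction. Pdgfc lies above the upper line in all 4 comparisons, from 1.06 to 1.98, and the other 5 genes lie below 0, none beyond the lower line.

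Whether the dose mattered was asked by comparing 75 Gy with 65 Gy at each time. No member passed and 0% of all genes tested did with edgeR's quasi-likelihood test, while 1570 genes at 2 weeks and 1431 at 6 weeks had an unadjusted p under 0.05. Among the members the unadjusted p was under 0.05 for Pdgfb at 6 weeks, which was 0.71 times as high at 75 Gy as at 65 Gy (log2 fold change -0.49, 95% interval -0.82 to -0.17, adjusted p = 0.735). The 3 libraries at 75 Gy lay below the 2 at 65 Gy, a separation that 15.3% of all genes tested showed in that direction. For Pdgfc the difference was 0.31 at 6 weeks (95% interval -0.03 to 0.65) and 0.09 at 2 weeks (95% interval -0.21 to 0.40). For Pdgfra it was -0.13 at 6 weeks (95% interval -0.44 to 0.19) and -0.21 at 2 weeks (95% interval -0.50 to 0.07). DESeq2 and edgeR's exact test called no member either. The intervals of all members included 0, except that of Pdgfb at 6 weeks.

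Time was examined in the same way. Between the controls of 6 weeks and those of 2 weeks no member passed with edgeR's quasi-likelihood test, DESeq2 or edgeR's exact test, and none had an unadjusted p under 0.05, against 1.63% of all genes tested that passed. The log2 differences ran from -0.19 for Pdgfra to 0.21 for Pdgfa, and that of Pdgfc was -0.0027 (95% interval -0.32 to 0.32). Pdgfa and Pdgfb were higher in each control library of 6 weeks than in each of 2 weeks, as were 12.4% of all genes tested. The effect of 75 Gy at 6 weeks was then compared with its effect at 2 weeks as a difference of log2 fold changes. For Pdgfc that difference was 0.83 (95% interval 0.39 to 1.28, unadjusted p = 0.00109, edgeR adjusted p = 0.113), and for Pdgfb it was -0.81 (95% interval -1.22 to -0.40, unadjusted p = 0.000786, edgeR adjusted p = 0.103). Neither passed after adjustment, where 0.299% of all genes tested did. Both passed with DESeq2 (adjusted p = 0.0141 for Pdgfc and 0.00815 for Pdgfb), Pdgfc passed without library 3134 (0.99, adjusted p = 0.0406) and Pdgfb without library 3141 (-1.004, adjusted p = 0.0242). For Pdgfra the difference was -0.0020 (95% interval -0.41 to 0.40). For 65 Gy the difference between times was 0.61 for Pdgfc (95% interval 0.15 to 1.08, adjusted p = 0.504), and no member passed with edgeR or DESeq2, where 0.0136% of all genes tested passed with edgeR.

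Count ratios within a library show how the balance between the members shifted without any scaling of libraries. They are not corrected for length, and no test was run on them. The ratio of Pdgfc to Pdgfra counts was 0.00571 ± 0.000775 (SD, n = 3) in the controls of 2 weeks, 0.0178 ± 0.00187 at 65 Gy and 0.0226 ± 0.00757 at 75 Gy. At 6 weeks it was 0.00645 ± 0.000259 in the controls, 0.0328 ± 0.00202 at 65 Gy (n = 2) and 0.0452 ± 0.00959 at 75 Gy. The highest control ratio over both times was 0.00666 and the lowest irradiated ratio 0.0161. The ratio of Pdgfc to Pdgfa, another ligand of PDGFRα, was 0.0239 ± 0.00129 in the controls of 6 weeks and 0.135 ± 0.0255 at 75 Gy. The ratio of Pdgfb to Pdgfa was 1.21 ± 0.123 in the controls of 6 weeks, 1.06 ± 0.0786 at 65 Gy and 0.866 ± 0.108 at 75 Gy, whereas at 2 weeks it lay at 1.29 ± 0.0952, 1.35 ± 0.226 and 1.35 ± 0.119. The ratio of Pdgfb to its receptor Pdgfrb was 0.680 ± 0.0527 in the controls of 6 weeks, 0.686 ± 0.0294 at 65 Gy (n = 2) and 0.540 ± 0.0283 at 75 Gy. At 2 weeks it went the other way, with 0.699 ± 0.177 in the controls, 0.764 ± 0.0675 at 65 Gy and 0.907 ± 0.144 at 75 Gy.

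Across the 17 libraries the 2 receptors moved together, with a Pearson r of log2 CPM of 0.849, and 0.724 when each library was taken as its deviation from its group mean. Pdgfa went with Pdgfra (r = 0.787, 0.793 within groups) and with Pdgfrb (r = 0.857, 0.716 within groups). Pdgfc went against Pdgfra (r = -0.909), but only weakly within groups (-0.265). The genes most like each member, among the 14482 whose mean log2 CPM reached 1, are given as a description, since all share these libraries and their groups. For Pdgfc they were Ccl8 (r = 0.979), Mmp12 (0.969) and Cfi (0.968), and for Pdgfra they were Mpdz (0.975), Rassf3 (0.975) and Anks1 (0.969). Those of Pdgfrb included Tpcn1 (0.960) and Lamb2 (0.952). They were for Pdgfa Tbx2 (0.952), Adcy9 (0.943) and Rgs6 (0.941), for Pdgfd Tspan12 (0.949), Hpgd (0.937) and Bdnf (0.934), and for Pdgfb Itga3 (0.915), Parvb (0.912) and Abi3 (0.911). By Spearman's rho Pdgfc and Pdgfb kept none of these among their first 3 genes.

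Genes that process the ligands or bind them beside the receptors were followed as a list of 12. At 65 Gy and 2 weeks 2 rose and 1 fell, at 75 Gy and 2 weeks 2 rose and 2 fell, at 65 Gy and 6 weeks 1 rose and 2 fell, and at 75 Gy and 6 weeks 2 rose and 3 fell. Their median log2 fold changes were 0.16, 0.14, -0.00074 and -0.07. In the same order, 11%, 22.3%, 14.7% and 36% of all genes tested changed, shares that the counts of this list and of all lists below should be set against. Plau, which encodes the urokinase-type plasminogen activator, rose in all 4, from 7.96 ± 1.81 CPM in the controls to 28.0 ± 2.51 at 65 Gy and 36.1 ± 11.7 at 75 Gy at 2 weeks, with log2 fold changes of 1.82 (adjusted p = 4.8e-05) and 2.18 (adjusted p = 5.43e-06). At 6 weeks its log2 fold changes were 1.43 and 1.41. Plat, the tissue-type activator known to release PDGF-C, did not pass in any of the 4 comparisons and had log2 fold changes between -0.31 and 0.04. St14, which encodes matriptase, a protease that can cleave PDGF-D, rose at 2 weeks (0.78 at 65 Gy and 0.62 at 75 Gy) and did not pass at 6 weeks (adjusted p = 0.0786 and 0.281). Furin did not pass in any of the 4, and the related convertase Pcsk5 fell in all but the first, where its log2 fold change was -0.59 (adjusted p = 0.0509). Its call at 75 Gy and 2 weeks was lost without library 3134 (-0.43, adjusted p = 0.0582). Pdgfrl, a receptor-like gene without a kinase, rose at 75 Gy and 6 weeks from 2.83 ± 0.483 to 5.63 ± 0.887 CPM (log2 fold change 0.99, adjusted p = 0.00063). Nrp1, a co-receptor for PDGF and VEGF ligands, fell in all 4 comparisons, by log2 fold changes between -0.42 and -0.75. Plat, Furin, Pcsk5 at 75 Gy and 6 weeks, St14 at 75 Gy and 2 weeks, and Nrp1 were named here after their values were seen.

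The VEGF branch of the superfamily, 9 genes, had more members that fell than rose. The counts were 0 rose and 3 fell at 65 Gy and 2 weeks, 1 and 4 at 75 Gy and 2 weeks, 1 and 5 at 65 Gy and 6 weeks, and 1 and 6 at 75 Gy and 6 weeks, with medians of -0.41, -0.23, -0.53 and -0.64. Vegfa, the main ligand of the branch, fell from 1226 ± 119 to 839 ± 17.5 CPM at 65 Gy and 705 ± 192 CPM at 75 Gy at 2 weeks (adjusted p = 0.0409 and 0.00275). Flt1, which encodes VEGF receptor 1, fell by 1.49 on the log2 scale at 75 Gy and 6 weeks (adjusted p = 7.79e-06) and Flt4, a lymphatic receptor, by 1.40 (adjusted p = 2.55e-05). Kdr, the main endothelial receptor, fell by 0.75 at 75 Gy and 2 weeks. Pgf, a ligand of FLT1, rose at 65 Gy and 6 weeks (log2 fold change 0.96, adjusted p = 0.0107).

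The class III receptors Kit, Csf1r and Flt3 are the nearest relatives of the PDGF receptors, and with their ligands they made a list of 7. Of these, 1 rose and 2 fell at 65 Gy at either time, and 2 rose and 2 fell at 75 Gy at either time, with medians between -0.19 and 0.32. Kit, the stem cell factor receptor, fell most, from 242 ± 57.0 to 98.2 ± 6.41 CPM at 65 Gy and 93.2 ± 29.9 CPM at 75 Gy at 2 weeks, and from 228 ± 17.7 to 114 ± 11.4 and 78.5 ± 5.49 CPM at 6 weeks. Flt3, a receptor of dendritic and progenitor cells, rose in all 4 comparisons, with log2 fold changes of 0.95, 1.21, 1.02 and 1.29.

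Downstream of the receptors, the 15 adaptors and effectors gave 0 rose and 1 fell at 65 Gy and 2 weeks, 2 and 5 at 75 Gy and 2 weeks, 0 and 7 at 65 Gy and 6 weeks, and 0 and 10 at 75 Gy and 6 weeks. The medians were -0.15, -0.22, -0.27 and -0.39. The changes were small. Plcg1, phospholipase C gamma, fell by 0.77 on the log2 scale at 75 Gy and 6 weeks (adjusted p = 0.000421), and Gab1, a docking adaptor, by 0.66 (adjusted p = 0.00126). Pik3ca, the catalytic subunit of PI3-kinase, fell by 0.36 at 65 Gy and 2 weeks, and its regulatory partner Pik3r1 by 0.48 at 65 Gy and 6 weeks. Grb2, another adaptor, rose at 75 Gy and 2 weeks (log2 fold change 0.45, adjusted p = 0.0164), but not without library 3134 (0.25, adjusted p = 0.0752). Of 14 negative regulators, 1 rose and 2 fell, 2 rose and 3 fell, 2 rose and 2 fell, and 3 rose and 7 fell in the same order of comparisons. Socs3, a feedback inhibitor of cytokine signalling that also responds to cytokines outside this pathway, rose in all 4, for example from 30.8 ± 4.97 to 102 ± 0.782 CPM at 65 Gy and 6 weeks (adjusted p = 6.24e-05). Spry1, an inhibitor of receptor kinase signalling, fell at 2 weeks by 0.63 at 65 Gy and 0.90 at 75 Gy, and Dusp5, a phosphatase of ERK, rose at 6 weeks by log2 fold changes of 0.86 and 0.94.

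The 16 growth-factor immediate-early genes belong to a class that serum or PDGF can induce in fibroblasts, as can other signals. Of these, 3 rose and 1 fell at 65 Gy and 2 weeks, and 4 rose and 3 fell at 75 Gy and 2 weeks. At 6 weeks 4 rose and 0 fell at 65 Gy, and 6 rose and 1 fell at 75 Gy. Their medians were 0.34, 0.47, 1.11 and 1.08. The 2 with the largest change were the chemokines Ccl2 and Cxcl1, which many inflammatory signals also induce. Ccl2 rose from 0.837 ± 0.570 to 16.1 ± 4.75 CPM at 65 Gy and 21.2 ± 10.9 CPM at 75 Gy at 2 weeks, and from 0.650 ± 0.192 to 4.59 ± 0.505 and 6.44 ± 1.47 CPM at 6 weeks. Cxcl1 had log2 fold changes of 3.16, 2.74, 2.66 and 2.89. Without library 3134, the counts at 75 Gy and 2 weeks were 2 up and 3 down in this list, 0 up and 2 down among the adaptors and effectors, 2 up and 2 down among the negative regulators, 1 up and 1 down in class III, 0 up and 4 down in the VEGF branch, and 2 up and 1 down in the processing list.

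These are bulk samples of lung, in which fewer cells of a type and less RNA per cell cannot be told apart. Marker lists of the cell types that make or bear the members were therefore read beside them, and their part in the changes of the members was not tested. All the marker genes had counts in every group, except in the skeletal muscle list given last. Alveolar fibroblast markers, beside Pdgfra, summed to 3846 to 4202 CPM in the controls of 2 weeks, 2481 to 2734 CPM at 65 Gy and 1422 to 3259.8 CPM at 75 Gy. At 6 weeks they summed to 4046 to 4560.2 CPM in the controls, 2725 to 2827 CPM at 65 Gy and 2569 to 3019 CPM at 75 Gy. Of 10, 2 fell at 65 Gy, 5 fell and 1 rose at 75 Gy at 2 weeks, and 4 and 6 fell at 6 weeks, with medians of -0.51, -0.71, -0.66 and -0.59 beside log2 fold changes of -0.59, -0.80, -0.68 and -0.80 for Pdgfra. Slc7a10 fell by 1.21 at 75 Gy and 2 weeks (by 0.79 without library 3134) and by 1.44 at 65 Gy and 6 weeks, and Scube2 by 0.93 and 1.16 at 6 weeks. Limch1 fell by 0.76 at 75 Gy and 2 weeks, and Wnt2 and Fgf10, both growth signals to the epithelium, by 0.57 and 0.59 at 65 Gy and 2 weeks.

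The other mesenchymal lists were read in the same way, and no test compared one list with another. Of 10 markers of myofibroblasts and activated fibroblasts, 2 rose at each dose at 2 weeks and 4 at each dose at 6 weeks, and 0 fell. Their sums were 2160 to 3068 CPM in the controls of 2 weeks, 2797 to 3572 at 65 Gy and 3148 to 3449 at 75 Gy. At 6 weeks the sums were 1462 to 1738, 2359 to 2456 and 2182 to 2738 CPM. Between the controls, 3 of the 10 were lower at 6 weeks than at 2 weeks (median -0.42), where 1.63% of all genes tested changed. Tnc, a matrix glycoprotein of wounds, rose at 6 weeks with log2 fold changes of 2.17 at 65 Gy and 2.01 at 75 Gy, and Col5a2, a fibrillar collagen chain, rose with log2 fold changes of 1.04 and 1.27. Of 10 adventitial fibroblast markers, 2 fell at each dose at 2 weeks, among them Pi16 and Dcn, while 1 rose at 65 Gy and 3 at 75 Gy at 6 weeks, among them Ccl11 and Mfap5. Pericyte markers, beside Pdgfrb, summed to 683 to 854 CPM in the controls of 2 weeks, 651 to 672 CPM at 65 Gy and 419 to 651 CPM at 75 Gy, and to 846 to 904, 557 to 649.7 and 559.8 to 630.2 CPM at 6 weeks. Of 12 pericyte markers, 1 rose and 0 fell at 65 Gy and 2 weeks, 1 and 6 at 75 Gy and 2 weeks, 1 and 5 at 65 Gy and 6 weeks, and 2 and 5 at 75 Gy and 6 weeks. The marker Rgs5 rose in all 4 comparisons, for example from 11.7 ± 2.20 to 46.3 ± 7.92 CPM at 75 Gy and 6 weeks (log2 fold change 1.99, adjusted p = 7.99e-05), whereas Notch3 fell by 0.997 there, Gucy1b1 by 0.76 at 65 Gy and 6 weeks, and Lamc3 by 0.91 at 75 Gy and 2 weeks. The medians of the pericyte list were -0.29, -0.49, -0.26 and -0.45. Of 10 smooth muscle markers, 5 fell at 75 Gy and 2 weeks (median -0.61), among them Cnn1 and Actg2, 2 rose at 75 Gy and 6 weeks (Pln and Hhip), and 0 passed at 65 Gy. Without library 3134, 1 smooth muscle marker rose and 1 fell at 75 Gy and 2 weeks, and Cnn1 (adjusted p = 0.0845) and Actg2 (adjusted p = 0.0685) did not pass.

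Endothelial markers, beside Pdgfb, summed to 3631 to 4026 CPM in the controls of 2 weeks, 2587 to 2635 CPM at 65 Gy and 1599.6 to 2842 CPM at 75 Gy, and to 3803 to 3935, 2138 to 2376 and 1737 to 2065 CPM at 6 weeks. Of 10, 5 fell at 65 Gy and 8 at 75 Gy at 2 weeks, and 8 and 9 at 6 weeks, with medians of -0.49, -0.69, -0.72 and -0.95, beside log2 fold changes of -0.07, -0.14, -0.46 and -0.95 for Pdgfb. Tek, the angiopoietin receptor, fell from 446 ± 21.1 to 186 ± 1.81 and 150.3 ± 11.2 CPM at 6 weeks, and Cdh5, the endothelial cadherin, from 1128 ± 38.1 to 599 ± 56.8 and 426 ± 73.0 CPM. At 2 weeks the endothelial sum was lower in all 6 irradiated libraries than in each control, and Pdgfb was lower in 5 of them. Platelet and megakaryocyte markers, another source of PDGF-B, gave 0 changed at 2 weeks at either dose, 3 fell at 65 Gy and 6 weeks, and 1 rose and 7 fell at 75 Gy and 6 weeks. Itga2b fell by 1.16 and 1.29 there and Pf4 rose (log2 fold change 0.68, adjusted p = 0.0318). Alveolar type 1 markers, beside Pdgfa and with Vegfa among them, gave 1 rose and 4 fell, 1 and 7, 0 and 7, and 0 and 8 of 10, with Cav1 down by 0.64, 0.77 and 0.74 in the first 3 and Rtkn2 by 1.16 at 75 Gy and 6 weeks. Of 10 alveolar type 2 markers, 0 changed at 2 weeks, 1 rose at 65 Gy and 6 weeks, and 3 rose and 1 fell at 75 Gy and 6 weeks, with Hc and Lamp3 among those that rose.

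Pdgfc rose, as did most macrophage markers and, as given above, some markers of myofibroblasts and activated fibroblasts. The macrophage markers had median log2 fold changes of 1.91 at 65 Gy and 2.55 at 75 Gy at 2 weeks, and 1.67 and 1.78 at 6 weeks, beside 1.06, 1.15, 1.67 and 1.98 for Pdgfc. They summed to 4880.0 to 10475 CPM in the controls of 2 weeks, 9323 to 10492 CPM at 65 Gy and 12855 to 15101 CPM at 75 Gy, and to 4308 to 4749, 12739.9 to 13820.4 and 15354 to 16605 CPM at 6 weeks. Of 10, 9 rose at 65 Gy and 10 at 75 Gy at 2 weeks, and 9 and 8 at 6 weeks, and 0 fell. Trem2, a receptor of lipid-handling macrophages, rose from 1.86 ± 0.452 CPM in the controls of 6 weeks to 40.5 ± 0.202 at 65 Gy and 48.9 ± 3.85 at 75 Gy. Gpnmb rose from 17.7 ± 2.61 to 509 ± 85.1 and 599 ± 269 CPM at 2 weeks, and Spp1, osteopontin, from 87.7 ± 13.1 to 2071 ± 393 CPM at 75 Gy and 6 weeks. At 2 weeks control library 3126 reached 10475 CPM in the macrophage sum, within the range of the 65 Gy libraries, and the other 2 controls lay below that range.

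**Figure D4:**
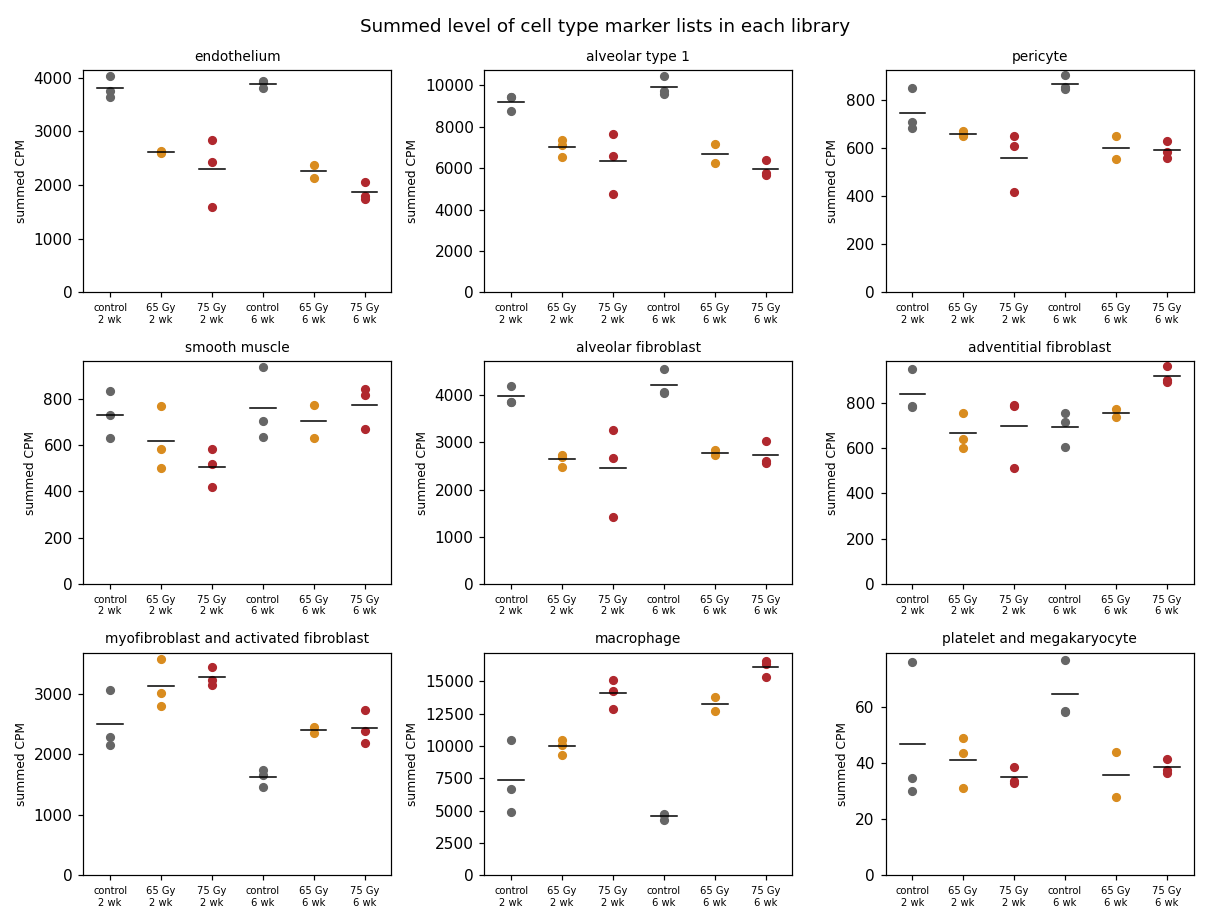
Summed CPM (vertical axes from 0) of 9 marker lists in the 17 libraries, with a bar at each group mean, grey for controls, orange for 65 Gy and red for 75 Gy. Endothelial and alveolar fibroblast sums lie below the controls in all 11 irradiated libraries, the macrophage sums at 6 weeks lie above them, and 75 Gy library 3134 is the lowest of its group in the endothelial, alveolar fibroblast and pericyte panels.

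Tissue from outside the lung wall was checked with 4 further lists. Of 8 mesothelial markers 1 fell at 75 Gy and 2 weeks (Upk1b) and 4 at 65 Gy and 6 weeks, among them Upk3b and Lrrn4, of 8 adipocyte markers 2 fell at 75 Gy and 2 weeks (Cidec and Plin4), and of 8 cardiac muscle markers 1 fell there (Actc1) and 2 rose at 75 Gy and 6 weeks (Tnni3 and Sln). Of 8 skeletal muscle markers, 6 were tested, of which 1 rose and 2 fell at 75 Gy and 2 weeks (Ckm and Tnnt3 fell, and Acta1 rose). Myh4 and Myh2 were at 0 in the controls, and Myh4 was also at 0 in the 75 Gy groups of both times. Their part in the members' values was not tested. Without library 3134, the counts at 75 Gy and 2 weeks were 7 endothelial, 6 alveolar type 1, 4 pericyte and 3 alveolar fibroblast markers that fell, and 10 macrophage markers that rose. No skeletal or cardiac muscle marker passed then, and 1 adipocyte marker fell, the calls of Ckm (adjusted p = 0.131), Tnnt3 (adjusted p = 0.169), Acta1 (adjusted p = 0.137), Actc1 (adjusted p = 0.0558) and Plin4 (adjusted p = 0.114) being lost. With that library left out, Mfap5 and Hhip rose at 75 Gy and 2 weeks, which they did not with it.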

How the data were processed

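Stranded poly-A libraries were sequenced for the authors, whose methods name Trimmomatic for trimming, HISAT2 for alignment to GRCm38.p6 and StringTie. The deposited values are whole-number read counts per gene with no normalization. The step from StringTie to counts, and its use of strand, are not given in the sources used here. The 17 libraries held 46764569 to 66797879 counts and were grouped by dose and time. In R 4.3.3, edgeR 4.0.16 was run with filterByExpr at its defaults (count 10, total 15), TMM factors, 1 coefficient per group and quasi-likelihood F tests of 9 contrasts with Benjamini-Hochberg adjustment. SE is the absolute log2 fold change over the square root of F. The code was tested on simulated data.

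The members and lists were chosen with earlier results of these data known. In each comparison with controls, each list's 2 largest changes that passed, at a mean log2 CPM (prior count 2) of 1 or more, are named, and for each member the 3 genes of highest Pearson r, of which 1 is not reported here. Exon lengths and overlaps came from GENCODE M21, places and upstream windows from RefSeq. Alternatives were RLE and upper-quartile factors, a looser filter (1 count in all) and a stricter one (10 counts per library), DESeq2 1.42.0, edgeR's exact test, only the groups compared, the DEG limit, raw library sizes for levels, Spearman's rho, and leaving out each library. The counts and values of list genes without library 3134 were added after the data were seen.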

Additional observations from a re-analysis of the deposited data

How the results depend on the processing

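No paired analysis was possible because the labels give each library its own number and join none of them across groups. Of 366 values under 7 alternatives other than leaving out a library, 351 kept their direction and their side of the threshold, 8 gained and 4 lost a call, and 3 turned. Pdgfc and Pdgfra in the 4 comparisons with controls, and Pdgfa, Pdgfb and Pdgfrb at 75 Gy and 6 weeks, passed under all 7. With the DEG limit, 1 member was called in each of the 4. At 75 Gy and 2 weeks 2 were called without a filter other than 1 count in all and 2 with only the groups compared. At 65 Gy and 6 weeks 5 were called with only the groups compared. For the difference of the 75 Gy effect between times, DESeq2 called 2. With upper-quartile factors the control difference between times was 0.0073 for Pdgfc and 0.0060 for Pdgfd, and the difference of the 75 Gy effect between times was 0.0266 for Pdgfra. The exact test was not run for differences of effects. The cause of these shifts was not tested.

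Leaving out a library gave 1 to 2 members at 65 Gy and 2 weeks, 2 to 3 at 75 Gy and 2 weeks, 1 to 2 at 65 Gy and 6 weeks, 4 to 5 at 75 Gy and 6 weeks, 0 to 1 for the 75 Gy effect between times, and 0 elsewhere. Of 378 such values, 338 kept direction and side, 14 lost and 2 gained a call, and 24 turned, all of values that had not passed. The log2 values that turned ranged, for the controls between times, from -0.052 to 0.076 for Pdgfc, -0.104 to 0.115 for Pdgfd and -0.074 to 0.288 for Pdgfrb. For the effect between times they ranged from -0.218 to 0.097 (Pdgfd) and -0.179 to 0.028 (Pdgfra) at 65 Gy, and from -0.114 to 0.145 (Pdgfra) and -0.287 to 0.075 (Pdgfrb) at 75 Gy. Between the doses they ranged at 2 weeks from -0.132 to 0.056 (Pdgfa), -0.190 to 0.091 (Pdgfb) and -0.058 to 0.187 (Pdgfc), and at 6 weeks from -0.102 to 0.213 (Pdgfd). Pdgfb at 65 Gy against controls at 2 weeks ranged from -0.235 to 0.046.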
